A study of Mus musculus with 6 samples.

Results

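Transcripts of 71 mitochondrial ribosomal protein genes were followed in mouse liver, of 8561 genes tested. They are the genes whose platform symbol begins with Mrpl or Mrps and a digit, whose probe had a detection p under 0.01 on at least 2 of 6 arrays, and for which the brightest such probe was taken. By symbol, 44 belong to the large subunit and 27 to the small subunit. The platform carried 76 such genes on 132 probes, and 106 of these probes were kept. Mrpl19, Mrpl32, Mrpl39, Mrpl45 and Mrps14 were detected on 0 arrays and were not kept. Mrpl39 came nearest to the limit, with a lowest detection p of 0.016. Just inside it lay Mrpl51 and Mrpl57, which were detected on 4 arrays and not on the NOB or HFD array at ZT14, so that their values there rest on background. The remaining 69 genes were detected on all 6 arrays. Mrps36, a symbol that is now placed in the oxoglutarate dehydrogenase complex, was not among the 76 genes on the platform.

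Livers came from C57BL/6J mice of 18 weeks, fed ad libitum in a cycle of 12 h light and 12 h dark. There were 3 arms: NOB, a high-fat diet with 200 mg/kg of nobiletin given by mouth every other day for 10 weeks; HFD, a high-fat diet with vehicle; and RC, a chow that the labels call regulatory, with vehicle. Nobiletin is a polymethoxylated flavone of citrus peel. Each arm was sampled at zeitgeber time (ZT) 14, 2 h after lights off, and at ZT2, 2 h after lights on. RNA of 4 mice was pooled for each arm and time and put on 1 Illumina bead array, so no array has a replicate and the spread between mice was not measured. Sex was not stated.

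The mitochondrial ribosome makes the few respiratory chain and ATP synthase subunits that mitochondrial DNA encodes. Its ribosomal RNAs come from mitochondrial DNA too, while all of its proteins are encoded in the nucleus, made in the cytosol and imported. Some of the proteins descend from bacterial ribosomal proteins and others are found only in mitochondria. In liver, whose hepatocytes are rich in mitochondria, the particle supplies subunits of the oxidative phosphorylation complexes that work alongside fat oxidation. Symbols do not always tell the place of a protein: Mrps18a and Mrps30 sit in the large subunit. By lineage, 28 large-subunit and 15 small-subunit genes have bacterial homologues, and 16 large-subunit and 10 small-subunit genes are specific to mitochondria, leaving these 2.

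Promoter windows of 6 genes are shown as the RefSeq table of GRCm38.p6 gives them, each running from 250 bases before to 50 bases after an annotated start site, on the strand of the gene. The first 4 belong to the genes with the lowest HFD minus RC differences below. Mrps27 lies at chr13:99344536-99344835 (+), Mrpl47 at chr3:32736706-32737005 (-), Mrps31 at chr8:22411090-22411389 (+) and Mrpl24 at chr3:87919294-87919593 (+). Mrps33, at chr6:39810887-39811186 (-), had the highest difference among the genes with a window. Mrps11, at chr7:78782881-78783180 (+), shares its start region with a second gene of the same particle. Capitals mark matches to the ETS family core CCGGAAG, the NRF1 core GCGCANGCG or the YY1 core AAGATGGCG, on either strand.
Mrps27: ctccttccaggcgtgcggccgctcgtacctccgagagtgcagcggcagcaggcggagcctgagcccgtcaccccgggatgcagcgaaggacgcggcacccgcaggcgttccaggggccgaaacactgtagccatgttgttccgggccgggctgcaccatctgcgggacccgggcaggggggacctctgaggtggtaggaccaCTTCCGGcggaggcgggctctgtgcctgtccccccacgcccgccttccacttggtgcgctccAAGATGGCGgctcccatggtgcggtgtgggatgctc
Mrpl47: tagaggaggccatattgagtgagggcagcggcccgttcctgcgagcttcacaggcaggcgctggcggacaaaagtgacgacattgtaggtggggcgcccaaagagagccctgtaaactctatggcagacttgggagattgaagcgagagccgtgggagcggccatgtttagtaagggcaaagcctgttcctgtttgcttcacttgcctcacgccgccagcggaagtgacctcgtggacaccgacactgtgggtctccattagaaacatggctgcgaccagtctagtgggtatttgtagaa
Mrps31: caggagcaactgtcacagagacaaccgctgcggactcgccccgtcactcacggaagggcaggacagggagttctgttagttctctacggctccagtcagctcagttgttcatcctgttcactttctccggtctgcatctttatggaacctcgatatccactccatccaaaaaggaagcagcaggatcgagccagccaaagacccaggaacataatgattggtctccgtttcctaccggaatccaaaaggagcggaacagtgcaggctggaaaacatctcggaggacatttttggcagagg
Mrpl24: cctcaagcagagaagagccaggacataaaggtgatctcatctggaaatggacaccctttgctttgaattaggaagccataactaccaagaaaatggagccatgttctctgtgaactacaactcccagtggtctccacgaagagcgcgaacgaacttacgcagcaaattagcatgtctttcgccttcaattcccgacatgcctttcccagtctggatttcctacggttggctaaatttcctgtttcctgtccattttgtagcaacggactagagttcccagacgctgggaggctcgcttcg
Mrps33: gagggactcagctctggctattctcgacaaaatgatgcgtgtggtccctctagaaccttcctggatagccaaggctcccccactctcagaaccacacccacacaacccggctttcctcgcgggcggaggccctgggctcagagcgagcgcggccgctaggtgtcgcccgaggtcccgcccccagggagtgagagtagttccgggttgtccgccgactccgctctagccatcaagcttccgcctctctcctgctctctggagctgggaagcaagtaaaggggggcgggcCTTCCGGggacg
Mrps11: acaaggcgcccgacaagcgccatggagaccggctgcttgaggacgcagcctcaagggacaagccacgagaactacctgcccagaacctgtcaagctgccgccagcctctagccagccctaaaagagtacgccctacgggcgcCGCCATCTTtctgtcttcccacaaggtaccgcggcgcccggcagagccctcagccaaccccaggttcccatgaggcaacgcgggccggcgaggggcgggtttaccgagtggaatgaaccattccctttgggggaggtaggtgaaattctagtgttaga
The window of Mrps27 held an ETS match before the start site and a YY1 match after it, that of Mrps33 an ETS match and that of Mrps11 a YY1 match. The windows of Mrpl47, Mrps31 and Mrpl24 held 0 matches to these motifs.

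ETS factors such as GABP, together with NRF1 and YY1, are textbook regulators of nuclear genes for mitochondrial proteins. Of the 71 genes, 63 had 69 windows in the table. The ETS core stood in 37.7% of these windows, against 8.86% of all 32851 windows and 11.6% of those of protein-coding genes. The NRF1 core stood in 18.8%, against 6.25% of all and 8.58% of coding windows. For the YY1 core the shares were 11.6%, 1.4% and 1.83%. At least 1 of these motifs stood in 56.5% of the mitoribosomal windows, in 14.8% of all windows and in 19.6% of coding windows. The E-box CACGTG, which the core clock factors and other bHLH proteins can bind, stood in 10.1%, against 7.15% of all and 7.84% of coding windows. These were 7 of the 69 windows and only 5 of the 63 genes, since overlapping windows of Mrpl2 hold the same E-box. The end of the ETS core can be the start of the YY1 core, and 0 mitoribosomal windows held overlapping matches. A match is a description of the letters, and a window without one says nothing of the factor.

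**Figure D1:**
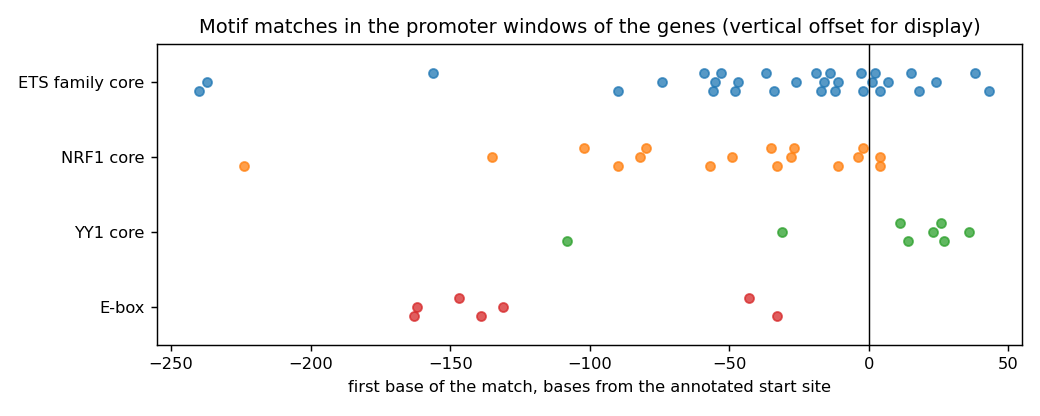
Position of each motif match in the 69 promoter windows of 63 mitoribosomal genes, in bases from the annotated start site (0), with 1 row for each motif and small vertical offsets that carry no value. Most ETS and NRF1 matches lie in the 100 bases before the start site, and most YY1 matches lie after it; the E-box of Mrpl2 appears 3 times because its 3 windows overlap.

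Many of these genes start back to back with a neighbour. Of the 63 genes with a window, 22 (34.9%) had a start of an oppositely oriented gene within 1000 bases upstream, against 8.48% of 17492 protein-coding genes. Mrpl46 and Mrps11, 1 protein of each subunit, start 42 bases apart. Mrps12 pairs with Sars2, the mitochondrial seryl-tRNA synthetase, Mrpl43 with Twnk, the helicase of mitochondrial DNA, Mrpl47 with Ndufb5, a subunit of respiratory complex I, and Mrps27 with Ptcd2, a protein of mitochondrial RNA processing. Expression of 15 of the neighbours was measured, with Mrpl46 and Mrps11 counted as neighbours of each other. For HFD minus RC, 7 of the 15 lay above 0, as did 49.6% of all genes, and their median log2 difference was -0.03. By limma, 0 of them passed a false discovery rate of 0.05, where 6.82% of all genes did.

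Signal is given as background-corrected, quantile-normalized log2 intensity. Values of a pair are for ZT14 and then ZT2, here and throughout. Between 28.1% and 32.0% of all probes were detected on an array. Hepatocyte genes were near the top of the scale, with Apoa1, Ttr and Ahsg between 13.83 and 14.36, while the Alb probe stood between 4.77 and 5.39, near background. The RC array at ZT14 stood apart by skeletal muscle genes: 3 of 5 listed were measured (Acta1, Mylpf and Tnnt3), their summed linear signal was 79.6 to 108 on 4 arrays, 287 on the HFD array at ZT14 and 1523 on the RC array at ZT14. Its 6 measured macrophage genes of 9 listed had a sum of 2159 to 3192 on the other arrays and of 1517 there. For the highest and lowest genes of each comparison and the largest of each related gene list, values printed below are also given without this array where that changed the sign or moved the difference by over 1.5 times, and the part of muscle RNA was not tested. In bulk liver RNA, fewer cells of a type and less RNA per cell cannot be told apart.

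The mitoribosomal genes gave strong and even signal. The median gene had a log2 signal of 9.29, against 7.04 for all genes tested. Its highest and lowest arrays lay 0.32 apart, against 0.54 for all genes, and 60 of the 71 genes spanned under 0.5 over all 6 arrays (84.5%, against 44.2% of all genes). All 71 spanned under 1 on the log2 scale, as did 86.9% of all genes. The widest was Mrps27, at 0.85, and the narrowest was Mrpl2, a protein of the peptidyl transferase region, at 0.13. The part of the higher signal in these narrow ranges was not tested.

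Brightness is that of a probe and does not rank transcripts. Among large-subunit genes, the probes of Mrpl17, Mrpl14 and Mrpl12 were brightest: Mrpl17 lay at 11.05 and 10.96 in NOB, 11.23 and 11.23 in HFD, and 10.93 and 11.03 in RC. The dimmest were Mrpl57, at 4.85 to 5.13 over the 6 arrays, Mrpl51, at no more than 5.37, and Mrpl35 at 5.95 to 6.49. Among small-subunit genes, Mrps24 was brightest, at 11.76 to 11.93, followed by Mrps34 at 10.86 to 11.16 and Mrps12, the protein of the decoding centre, at 10.55 to 10.77. The dimmest were Mrps25 at 5.71 to 6.08, Mrps15 at 5.96 to 6.35 and Mrps27 at 6.15 to 7.01, all detected on every array.

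**Figure D2:**
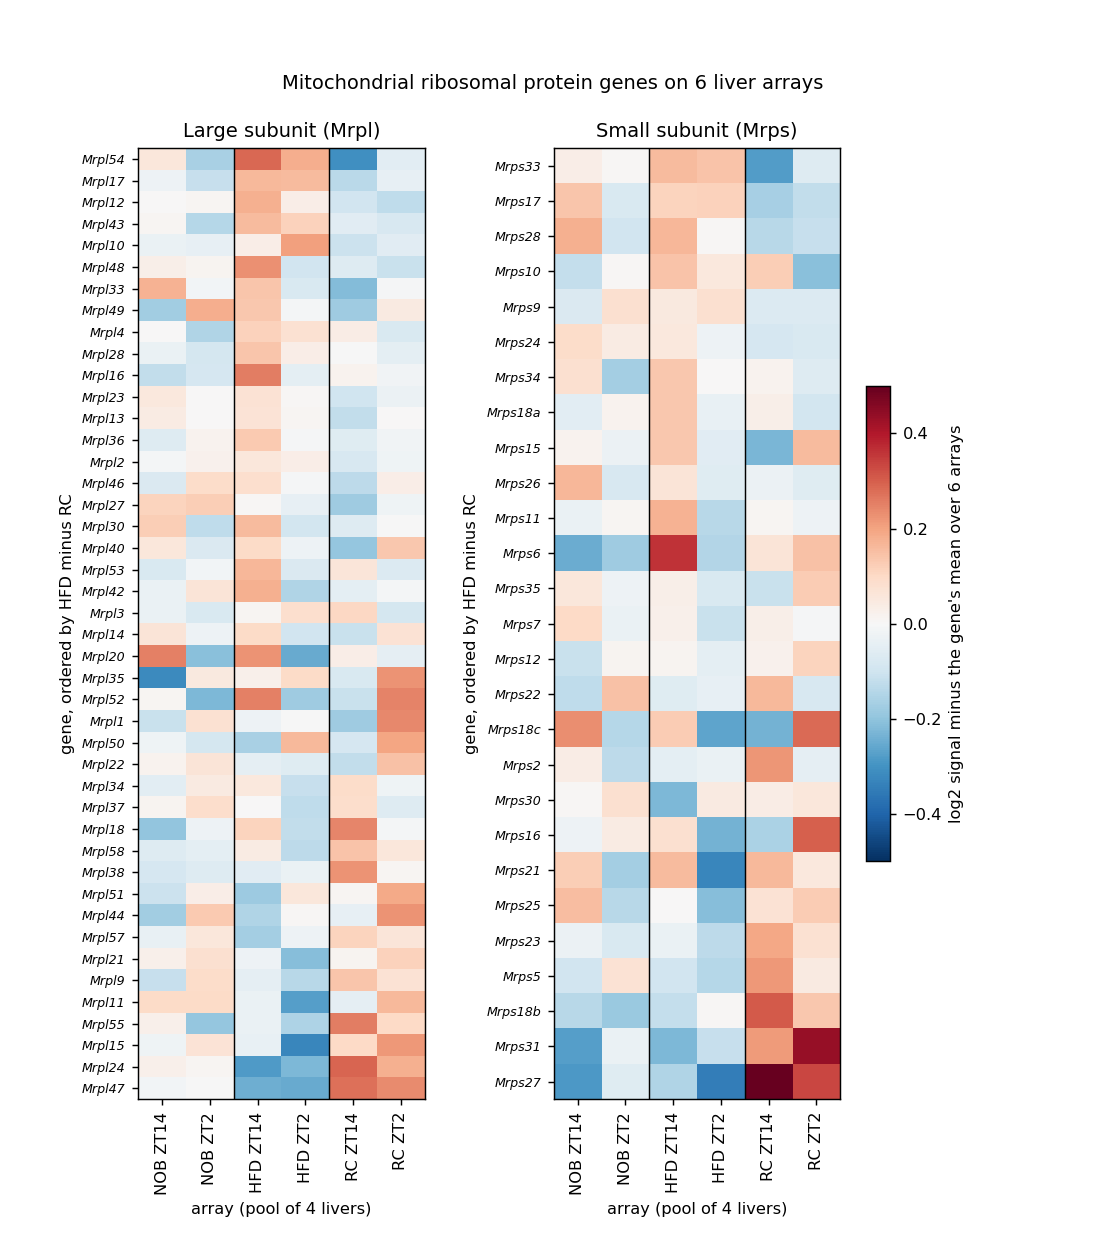
Log2 signal of each of the 71 genes on each of the 6 arrays, as the deviation from the mean of the gene over the arrays (colour, red above and blue below), with the large subunit on the left, the small subunit on the right, and genes ordered from the highest HFD minus RC difference to the lowest. The bottom rows of both panels, Mrpl24 and Mrpl47 on the left and Mrps31 and Mrps27 on the right, are red in RC and blue in HFD.

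Setting HFD against RC asked whether transcripts for the mitochondrial ribosome followed the diet. Over both times, 0 of the 71 genes passed limma at a false discovery rate of 0.05, where 6.82% of all genes tested did. At an unadjusted p under 0.05 there were 5, namely 1 higher and 4 lower, against 24.2% of all genes. The median HFD minus RC difference was -0.01 on the log2 scale, 0.03 for large-subunit and -0.06 for small-subunit genes, beside -0.00 for all genes. Without the RC array at ZT14 the median over the 71 genes was -0.05. The median size of a difference, whatever its sign, was 0.12 against 0.22 for all genes. For 56 of the 71 genes (78.9%) the 95% interval lay wholly inside a 1.5-fold difference either way, which was so for 44.3% of all genes.

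The 4 lowest genes split evenly between the subunits. Mrps27, a pentatricopeptide-repeat protein of the small subunit, had log2 signals of 6.35 and 6.15 in HFD, against 7.01 and 6.83 in RC. Both HFD arrays lay below both RC arrays. The fitted difference was -0.67 ± 0.17 (SE), or 1.59-fold lower, with a 95% interval of -1.06 to -0.28 and a limma adjusted p of 0.062. It was the only one of the 71 whose fitted difference reached 1.5-fold, as 12.8% of all genes did. With other processing or single arrays left out, the difference of Mrps27 ran from -0.78 to -0.47. It thus did not always reach 1.5-fold, which is 0.585 on the log2 scale. Ptcd2, which starts 108 bases from Mrps27 on the other strand, lay at 6.73 and 6.75 in HFD, against 7.42 and 7.03 in RC (-0.48 ± 0.23, limma adjusted p = 0.247).

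Mrpl47, the homologue of bacterial L29 beside the exit tunnel, lay at 8.06 and 8.05 in HFD, against 8.58 and 8.54 in RC. The arms did not overlap. Its difference was -0.50 ± 0.14 (adjusted p = 0.082 by limma), and its second probe gave -0.69. Mrps31, a small-subunit protein specific to mitochondria, lay at 10.16 and 10.27 in HFD, against 10.60 and 10.82 in RC. Its 3 probes ran from -0.66 to -0.50, and the brightest gave -0.50 ± 0.14 (adjusted p = 0.089 by limma). Mrpl24, the homologue of bacterial L24, also at the exit tunnel side, lay at 8.55 and 8.61 in HFD, against 9.12 and 9.01 in RC. The fitted difference of this single probe was -0.49 ± 0.14 (adjusted p = 0.095 by limma), again with no overlap between arms.

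These sizes held without the RC array at ZT14, at -0.57 for Mrps27, -0.48 for Mrpl47, -0.52 for Mrps31 and -0.42 for Mrpl24, with adjusted p between 0.210 and 0.290 by limma. Under 2 other treatments of background, Mrpl47 and Mrps31 passed the false discovery rate. So did 622 of all 8561 genes with no background correction and 615 with an offset of 50.

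Mrpl15, the homologue of bacterial L15, followed at -0.34 ± 0.16 (adjusted p = 0.256), and its 6 probes ran from -0.58 to -0.34. Mrps18b, a small-subunit member of the trio of S18 paralogs, had a difference of -0.28 ± 0.15 (adjusted p = 0.307), with 3 probes between -0.31 and -0.24. Both genes were lower on both HFD arrays than on both RC arrays. Single arrays moved these sizes: Mrpl15 stood at -0.54 without the HFD array at ZT14 and at -0.15 without that at ZT2, and Mrps18b at -0.16 without the HFD array at ZT14 and at -0.17 without the RC array at ZT14.

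At the other end stood Mrpl54, a large-subunit protein specific to mitochondria. It lay at 9.55 and 9.45 in HFD, against 8.96 and 9.22 in RC, a difference of 0.41 ± 0.17 (adjusted p = 0.193 by limma). The HFD arrays lay above the RC arrays, and the gap was 0.59 at ZT14 and 0.23 at ZT2. Without the RC array at ZT14 the difference was 0.20. Mrps33 lay at 10.65 and 10.63 in HFD, against 10.21 and 10.43 in RC (0.32 ± 0.15, adjusted p = 0.238 by limma), and both of its probes were higher. It stood at 0.21 without the RC array at ZT14.

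Next came Mrps17 at 0.26 ± 0.15, Mrpl17 at 0.25 ± 0.14, Mrps28, related to bacterial S1, at 0.22 ± 0.15 and Mrpl12 at 0.22 ± 0.14. Without the RC array at ZT14, Mrps28 stood at 0.09, and with median centring in place of the quantile step Mrpl12 stood at 0.10. Mrpl12 forms the flexible stalk that engages the elongation factors. Its signal was 10.93 and 10.79 in HFD, against 10.66 and 10.63 in RC. The stalk base protein Mrpl10 had a difference of 0.20 ± 0.14, and Mrpl11, at the foot of the stalk, one of -0.21 ± 0.16. The HFD and RC arrays of Mrpl12 and Mrpl10 did not overlap and those of Mrpl11 did. The second probe of Mrpl10, detected on all 6 arrays, gave a difference of 0.0042. Its arms overlapped, at 9.65 and 9.58 in HFD and 9.64 and 9.59 in RC.

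**Figure D3:**
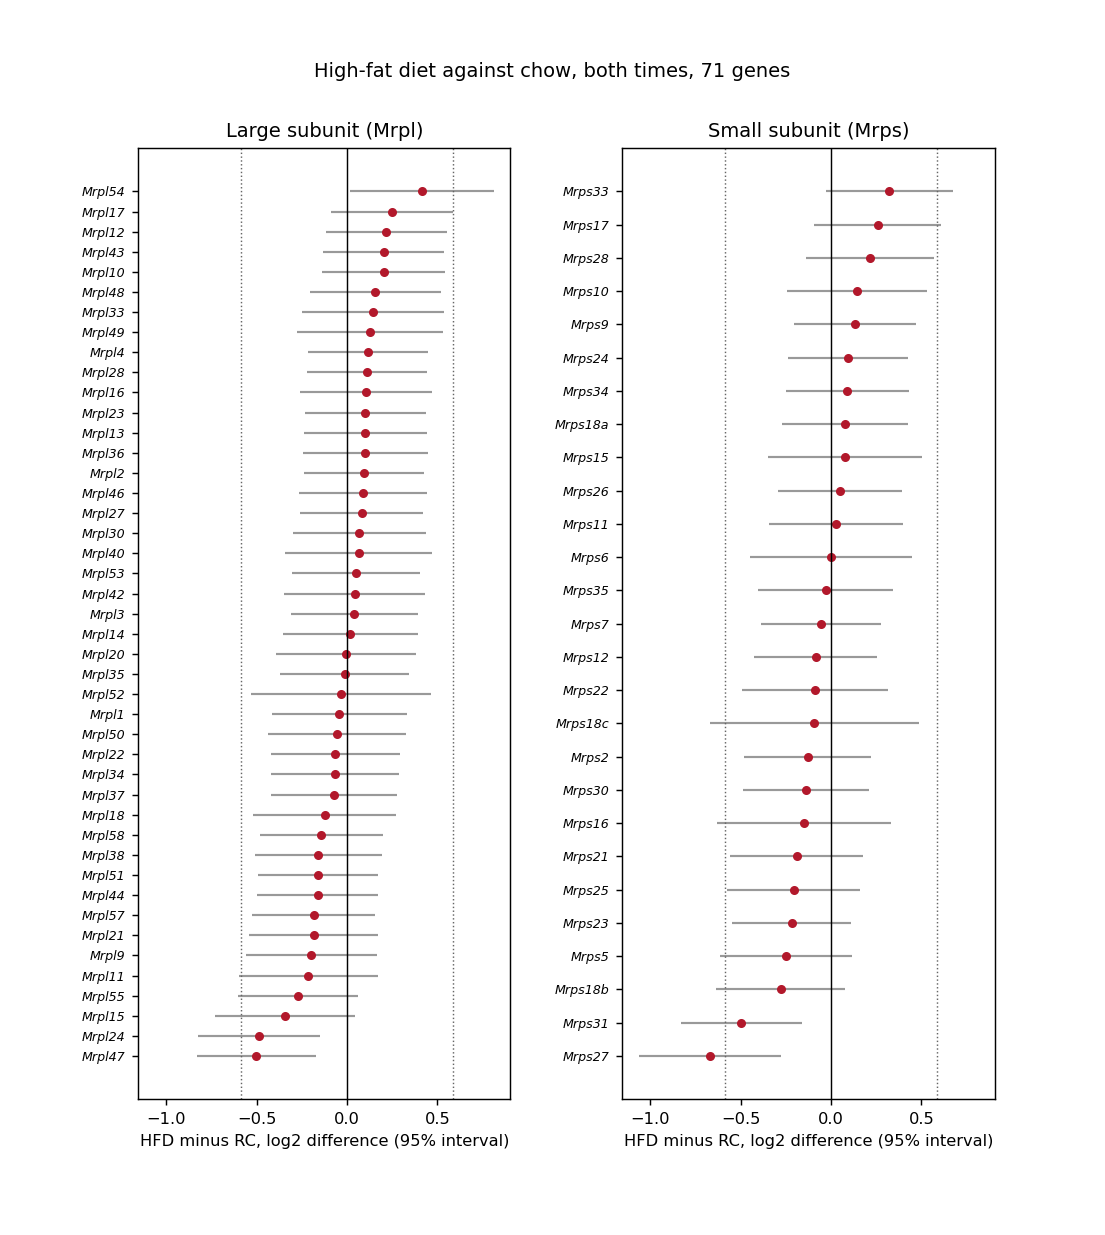
Fitted HFD minus RC difference of each gene on the log2 scale (point) with its 95% interval (line), for 44 large-subunit genes on the left and 27 small-subunit genes on the right; dotted lines mark a 1.5-fold difference. The intervals of Mrps27, Mrps31, Mrpl24 and Mrpl47 lie below 0 and that of Mrpl54 lies above it, before adjustment over 8561 genes.

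Absence of overlap was common among all genes. All HFD arrays lay above all RC arrays for 16 of the 71 genes, as for 26.4% of all genes, and below them for another 16, as for 25.2% of all genes. By subunit, 11 large-subunit genes were higher and 9 lower in this sense, and 5 small-subunit genes were higher and 7 lower. Of the 10 small-subunit genes specific to mitochondria, 3 had a difference above 0, and their median was -0.15. Among the 15 small-subunit genes with a bacterial homologue, 8 lay above 0, with a median of 0.00. Of all genes, 49.6% lay above 0.

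Further genes were picked by role, with earlier results of these data known. Mrps12 had an HFD minus RC difference of -0.08 ± 0.14, Mrps7 of -0.06 ± 0.14 and Mrps15 of 0.08 ± 0.18. The second probe of Mrps12 gave -0.02 and that of Mrps7 -0.26. The exit tunnel protein Mrpl23 stood at 0.10 ± 0.14 and Mrpl28 at 0.11 ± 0.14. Mrps34, needed for a stable small subunit, stood at 0.09 ± 0.14, and Mrpl44, whose fold is that of an RNase III, at -0.16 ± 0.14. Of the S18 paralogs, Mrps18a stood at 0.08 ± 0.15 and Mrps18c at -0.09 ± 0.24, the least precise of the 71. Mrps30 stood at -0.14 ± 0.15. None of these 10 passed limma. Of the 24 genes with several detected probes, 19 had probes of 1 sign in this comparison, and the probes of Mrpl3, Mrpl49, Mrpl51, Mrps10 and Mrps25 differed in sign. Probes agreed less often elsewhere: they differed in sign for 10 of the 24 genes in NOB minus HFD, 10 in NOB minus RC and 11 in ZT14 minus ZT2.

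Setting NOB against HFD asked whether nobiletin moved these transcripts on the same diet. By limma, 0 of the 71 genes passed, as did 0.164% of all genes, and 0 reached an unadjusted p under 0.05, against 8.77% of all genes. The median NOB minus HFD difference was -0.01, with -0.02 for large-subunit and 0.02 for small-subunit genes, and 0.01 for all genes. The median size was 0.08, against 0.13 for all genes. The 95% interval lay inside a 1.5-fold difference for 64 of the 71 genes (90.1%, against 61.1% of all genes). NOB arrays lay above both HFD arrays for 9 genes and below them for 15, where 17.8% of all genes were above and 18.4% below.

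Mrpl24 had the highest difference. It lay at 8.86 and 8.84 in NOB, against 8.55 and 8.61 in HFD, a difference of 0.27 ± 0.14 (adjusted p = 0.683 by limma), and its RC arrays were higher still. Mrpl47 lay at 8.29 and 8.30 in NOB, against 8.06 and 8.05 in HFD (0.24 ± 0.14, adjusted p = 0.722 by limma), also short of RC. Mrpl11 stood at 8.46 and 8.46 in NOB, against 8.33 and 8.09 in HFD, a difference of 0.25 ± 0.16. NOB and HFD arrays did not overlap for any of the 3, nor for Mrpl15 at 0.21 ± 0.16, Mrpl21 at 0.17 ± 0.15 and Mrpl27, a protein near the peptidyl transferase centre, at 0.14 ± 0.14. All 6 belong to the large subunit, as do 44 of the 71 genes and, except for Mrps6, the 6 lowest genes given below. Of the 44 large-subunit genes, 18 lay above 0. The size depended on the HFD array at ZT2 for 4 of the 6 highest genes: without it Mrpl11 stood at 0.08, Mrpl15 at 0.0094, Mrpl21 at 0.04 and Mrpl27 at 0.07.

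Mrps27 and Mrps31 were close to HFD in the NOB arrays. Mrps27 lay at 6.21 and 6.44 in NOB and Mrps31 at 10.11 and 10.35, differences from HFD of 0.07 ± 0.17 and 0.02 ± 0.14. The HFD arrays stand in both comparisons, with opposite sign.

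The lowest gene was Mrps6, the homologue of bacterial S6. It had 7.65 and 7.72 in NOB, against 8.26 and 7.76 in HFD, a difference of -0.32 ± 0.19 (adjusted p = 0.728 by limma). The gap lay at ZT14, where it was -0.61, against -0.03 at ZT2. Mrpl54 had 9.32 and 9.10 in NOB, against 9.55 and 9.45 in HFD (-0.29 ± 0.17, adjusted p = 0.725 by limma). Then came Mrpl17 at -0.23 ± 0.14, Mrpl16 at -0.21 ± 0.15, Mrpl43 at -0.20 ± 0.14 and Mrpl35 at -0.19 ± 0.15. The NOB and HFD arrays overlapped for Mrpl35 alone among these 6. Without the HFD array at ZT14, Mrps6 stood at -0.03, Mrpl16 at -0.05 and Mrpl35 at -0.06, and without the NOB array at ZT2 Mrpl54 stood at -0.14.

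Against chow, NOB gave 0 of 71 genes past limma, where 0.993% of all genes passed, and 3 at an unadjusted p under 0.05, where 15% of all genes did. All 3 were small-subunit genes with lower signal in NOB. Mrps27 lay at 6.21 and 6.44 in NOB, against 7.01 and 6.83 in RC (-0.60 ± 0.17, adjusted p = 0.173 by limma). Mrps31 had a difference of -0.48 ± 0.14 (adjusted p = 0.193 by limma) and Mrps18b of -0.38 ± 0.15 (adjusted p = 0.294 by limma). For Mrps18b the signals were 9.67 and 9.63 in NOB, against 10.12 and 9.95 in RC. All NOB arrays lay below all RC arrays for these genes. Without the RC array at ZT14 the difference of Mrps27 was -0.50 and that of Mrps31 -0.51, and without the NOB array at ZT14 that of Mrps27 was -0.39.

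The highest were Mrpl27 at 0.22 ± 0.14, Mrpl33 at 0.19 ± 0.17 and Mrps33 at 0.19 ± 0.15. When the RC array at ZT14 was left out, Mrpl27 stood at 0.13, Mrpl33 at -0.02 and Mrps33 at 0.07. NOB lay above RC without overlap for 10 genes and below it for 15, where 22.8% and 19.2% of all genes did so. The median NOB minus RC difference was -0.01 over the 71 genes and 0.02 over all genes.

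**Figure D4:**
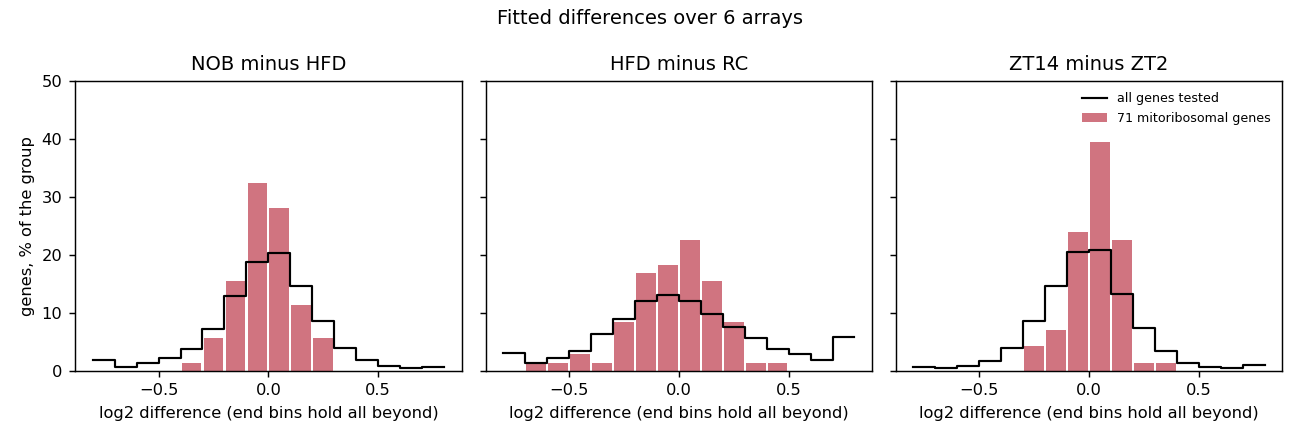
Share of the 71 mitoribosomal genes (bars) and of all 8561 genes tested (line) by fitted log2 difference, in bins of equal width with all further values in the end bins, for NOB minus HFD, HFD minus RC and ZT14 minus ZT2. The bars are centred near 0 and are narrower than the line in all 3 panels.

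Time of day was compared over the 3 arms. By limma, 0 of the 71 genes differed between ZT14 and ZT2, beside 0.0234% of all genes, and 1 reached an unadjusted p under 0.05, beside 10.9% of all genes. The median ZT14 minus ZT2 difference was 0.03, against -0.01 for all genes. Above 0 lay 46 of the 71 genes (64.8%, against 48.4% of all genes). The interval was inside a 1.5-fold difference for 69 of the 71 (97.2%, against 77.0% of all genes).

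The gene with the lowest p was Mrpl20, the homologue of bacterial L20. Its ZT14 signals were 9.09 in NOB, 9.06 in HFD and 8.87 in RC, and its ZT2 signals were 8.63, 8.58 and 8.79 in the same order. The difference was 0.34 ± 0.13 (adjusted p = 0.432 by limma), and with either RC array left out it was 0.47. Mrps21 had ZT14 signals of 9.76 in NOB, 9.80 in HFD and 9.80 in RC, and ZT2 signals of 9.47, 9.31 and 9.69 (0.30 ± 0.13). All 3 arrays at ZT14 lay above all 3 at ZT2 for both genes.

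Mrpl55 at 0.17 ± 0.11, Mrps34 at 0.15 ± 0.12, Mrps25 at 0.15 ± 0.13 and Mrpl30 at 0.15 ± 0.13 followed, and only Mrps34 of these was free of overlap. The lowest were Mrpl35 at -0.25 ± 0.12 and Mrpl44 at -0.24 ± 0.12. Mrpl44 had ZT14 signals of 7.56 in NOB, 7.58 in HFD and 7.69 in RC, and ZT2 signals of 7.86, 7.73 and 7.95, so that the times did not overlap. Mrpl1, of the stalk on the tRNA exit side, stood at -0.21 ± 0.13, Mrps31 at -0.19 ± 0.12, Mrpl51 at -0.19 ± 0.11 and Mrpl50 at -0.18 ± 0.13. A second probe of Mrpl51, detected on 3 arrays, gave 0.21. With either RC array left out, the difference was 0.25 for Mrps25, 0.25 for Mrpl30 and -0.11 for Mrpl1. With either HFD array left out, Mrpl50 stood at -0.11. An arm that has lost an array adds nothing to this comparison, so these values cannot single out an array. ZT14 lay above ZT2 without overlap for 5 genes and below it for 5, where 5.31% and 6.62% of all genes did so.

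Within each arm the genes sided differently with time. In HFD, 54 of 71 genes were higher at ZT14 than at ZT2, with a median difference of 0.11, while 47.6% of all genes were. In NOB 35 of 71 were higher at ZT14 (median -0.00, 51.2% of all genes), and in RC 32 of 71 (median -0.02, 47.1% of all genes). With 1 array at each point these counts have no test, and genes on 1 array share its errors. The median signal of the 71 genes was 9.32 and 9.26 in NOB, 9.46 and 9.21 in HFD, and 9.28 and 9.23 in RC, so that the HFD array at ZT14 was the highest and the HFD array at ZT2 the lowest.

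The same pattern appears as a diet difference at each time. At ZT14, 43 of 71 genes were higher in HFD than in RC, with a median difference of 0.11, and at ZT2, 24 of 71 were, with a median of -0.09. The medians of all genes were 0.00 and 0.01 at these times. For 22 genes (31.0%) HFD was above RC at ZT14 and below it at ZT2, a combination that 15.8% of all genes had. The opposite combination was found for 3 genes (Mrpl3, Mrps2 and Mrps22) and for 16.9% of all genes. Against HFD, 26 of 71 genes were higher in NOB at ZT14 (median -0.04) and 42 of 71 at ZT2 (median 0.05). Of all genes, 52.0% and 49.0% were higher in NOB at these times. The RC and HFD arrays at ZT14 are those with the muscle signal given above, and its part was not tested.

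Mrps18c, which takes the place of bacterial S18 in the small subunit, had HFD minus RC differences that lay far apart at the 2 times. Its signal was 9.64 and 9.26 in NOB, 9.54 and 9.14 in HFD, and 9.17 and 9.69 in RC. ZT14 was the higher time in both high-fat arms and the lower one in RC, so HFD minus RC was 0.36 at ZT14 and -0.55 at ZT2. Mrpl52, a large-subunit protein specific to mitochondria, lay at 9.44 and 9.21 in NOB, 9.69 and 9.26 in HFD, and 9.32 and 9.68 in RC, in the same order of times. The 4 genes with the lowest diet difference instead kept it at both times: at ZT14 and ZT2, Mrps27 had -0.66 and -0.68, Mrpl47 -0.52 and -0.49, Mrps31 -0.44 and -0.55, and Mrpl24 -0.57 and -0.40.

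**Figure D5:**
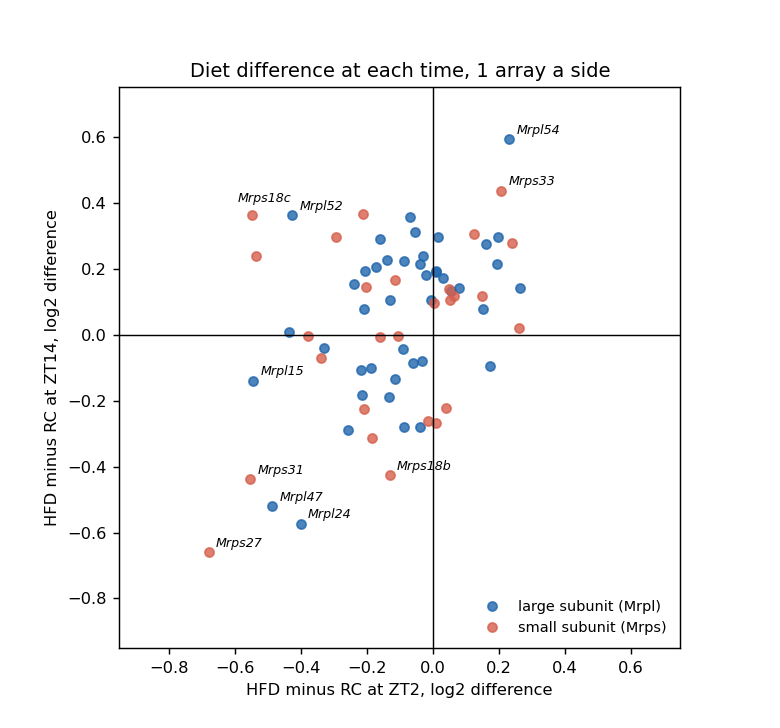
HFD minus RC difference of each gene on the log2 scale at ZT2 (horizontal axis) and at ZT14 (vertical axis), each from 1 array a side, with large-subunit genes in blue and small-subunit genes in red. Mrps27, Mrps31, Mrpl47 and Mrpl24 lie low on both axes, while Mrps18c and Mrpl52 lie in the quadrant that is positive at ZT14 and negative at ZT2, as 22 of the 71 genes do.

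Genes that work with the mitochondrial ribosome were measured on the same arrays. Of the mitoribosomal proteins under other symbols, Dap3, Ptcd3 and Chchd1 of the small subunit had HFD minus RC differences of -0.02 ± 0.14, -0.01 ± 0.16 and -0.01 ± 0.15, with Ptcd3 at 0.10 ± 0.16 and Dap3 at 0.02 ± 0.14 for NOB minus HFD. None of the 6 related lists held a gene past limma in any of the 4 comparisons, and their members at an unadjusted p under 0.05 are counted below for HFD minus RC, where 24.2% of all genes were.

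Among 13 translation factors, the median HFD minus RC difference was -0.07, and 0 were higher and 1 lower at an unadjusted p under 0.05. The release factor gene Mtrf1l lay at 5.51 and 5.57 in HFD, against 5.93 and 6.05 in RC (-0.45 ± 0.14, adjusted p = 0.105 by limma), and the elongation factor gene Gfm1 stood at 0.28 ± 0.21. For NOB minus HFD the median was 0.12, with Tsfm at -0.26 ± 0.15 and Gfm1 at 0.22 ± 0.21. Against RC, NOB had Gfm1 at 0.51 ± 0.21 and Mtrf1l at -0.29 ± 0.14. Between times, the release factor gene Mtrf1 stood at -0.43 ± 0.12 and Gfm1 at 0.29 ± 0.17.

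Of 19 genes for assembly of the particle and modification of its RNA, 17 lay above 0 in NOB minus HFD (median 0.08). In HFD minus RC, 5 did (median -0.18). Of all genes, 51.2% and 49.6% lay above 0 in these comparisons. The counts have no test, and genes on 1 array share its errors. These comparisons share the HFD arrays. For HFD minus RC, 1 was higher and 1 lower at an unadjusted p under 0.05. For NOB minus HFD, 1 was higher at that limit, which 8.77% of all genes reached. The pseudouridine synthase gene Trub2 stood at 0.61 ± 0.24 and the rRNA methyltransferase gene Mrm3 at -0.35 ± 0.14 for HFD minus RC. For NOB minus HFD the largest were Mrm1, another rRNA methyltransferase gene, at 0.41 ± 0.15 and Trub2 at -0.33 ± 0.24. For NOB minus RC they were Trub2 at 0.28 ± 0.24 and the GTPase gene Noa1 at -0.25 ± 0.16. Between times they were Mtg2, detected on 2 arrays, at -0.43 ± 0.13 and Trub2 at 0.39 ± 0.19.

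The 10 genes of mitochondrial DNA transcription and replication had a median HFD minus RC difference of -0.09, with 0 higher and 2 lower at an unadjusted p under 0.05. Twnk lay at 6.83 and 6.77 in NOB, 6.42 and 6.39 in HFD, and 6.88 and 6.89 in RC. Both HFD arrays were lower than the other 4, with differences of 0.40 ± 0.14 for NOB minus HFD (adjusted p = 0.462 by limma) and -0.48 ± 0.14 for HFD minus RC (adjusted p = 0.092 by limma). Its back-to-back neighbour Mrpl43 had HFD arrays higher than the other 4, at 9.30 and 9.15 in NOB, 9.45 and 9.41 in HFD, and 9.23 and 9.21 in RC. The termination factor gene Mterf1a stood at 0.30 ± 0.14 for NOB minus HFD and -0.36 ± 0.14 for HFD minus RC. Tfam, which packages mitochondrial DNA, stood at 0.21 ± 0.15 and Top1mt at 0.20 ± 0.17 for NOB minus RC. Between times, Top1mt stood at -0.24 ± 0.14 and Mterf1a at -0.14 ± 0.11.

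Of the 6 regulators of mitochondrial biogenesis measured, 1 lay above 0 for HFD minus RC, as did 49.6% of all genes. At an unadjusted p under 0.05, 1 was lower. The coactivator gene Ppargc1b lay at 6.96 and 7.37 in NOB, 6.57 and 6.81 in HFD, and 7.18 and 7.26 in RC. Its differences were 0.48 ± 0.15 for NOB minus HFD (adjusted p = 0.409 by limma) and -0.53 ± 0.15 for HFD minus RC (adjusted p = 0.089 by limma). The receptor gene Esrra stood at -0.32 ± 0.14 for NOB minus RC and -0.30 ± 0.14 for HFD minus RC. Ppargc1a stood at 0.44 ± 0.19 for NOB minus HFD and -0.47 ± 0.16 for ZT14 minus ZT2, and Pprc1 at 0.31 ± 0.19 for NOB minus RC and 0.38 ± 0.16 between times.

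The 10 proteases and chaperones of the matrix and inner membrane included the lowest HFD minus RC difference of these lists, and at an unadjusted p under 0.05 there were 1 higher and 4 lower. For HFD minus RC, the inner membrane protease gene Yme1l1 stood at -0.54 ± 0.19 and the chaperonin genes Hspe1 and Hspd1 at -0.53 ± 0.15 and -0.49 ± 0.14. Hspe1 lay at 8.98 and 8.71 in NOB, 8.83 and 8.37 in HFD, and 9.19 and 9.07 in RC. The HFD arrays lay below the RC arrays for all 3 genes. For NOB minus HFD, Hspe1 stood at 0.24 ± 0.15 and Clpx at -0.24 ± 0.20, and for NOB minus RC, Yme1l1 at -0.39 ± 0.19 and Hspe1 at -0.29 ± 0.15. Between times, Clpx stood at -0.36 ± 0.16 and Hspe1 at 0.28 ± 0.13.

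The RC array at ZT14 enters these values too. Without it, the HFD minus RC difference was -0.49 for Mtrf1l, -0.51 for Twnk, -0.41 for Ppargc1b, -0.65 for Hspe1, -0.42 for Hspd1 and -0.79 for Yme1l1, each of the same sign. Gfm1 stood at 0.60 and Ptcd3 at -0.11. For NOB minus RC without that array, Gfm1 stood at 0.82, Noa1 at -0.10, Top1mt at 0.11, Pprc1 at 0.54 and Yme1l1 at -0.63. For ZT14 minus ZT2, Gfm1 stood at 0.08, Pprc1 at 0.22 and Clpx at -0.22, the same values as without the RC array at ZT2. Trub2 differed between times: its NOB minus HFD difference was 0.17 at ZT14 and -0.83 at ZT2, and its NOB minus RC difference 0.51 at ZT14 and 0.04 at ZT2. When any 1 of the 6 arrays was left out, 12 of the 48 differences that were the 2 largest of a related list changed sign and 30 moved by over 1.5 times or changed sign. Those that changed sign included Gfm1, at -0.03 for HFD minus RC without the RC array at ZT2 and -0.06 for NOB minus HFD without the NOB array at ZT2. Clpx stood at 0.08 for NOB minus HFD without the HFD array at ZT14. Trub2 stood at 0.05 for NOB minus HFD without the HFD array at ZT2 and at -0.09 for NOB minus RC without the NOB array at ZT14. Ptcd3 and Dap3 changed sign for both NOB minus HFD and HFD minus RC.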

How the data were processed

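Per the file headers, the deposited raw table held 1 intensity and 1 detection p-value for each array, for 45281 probes. The submitters' processing notes name GenomeStudio, with neither version nor options. A second table by the authors, the processed matrix, held an intensity per probe whose median was 3.5 on every array, with a lowest value of -15.9. Its scale was linear and its columns matched the arrays of the first table (r of at least 0.966 over 11487 probes detected on every array, at most 0.349 with another array). These are single-colour arrays, so direction is not open, while the amount subtracted and the centring before scaling are unknown.

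Raw intensities were normalized with neqc of limma 3.58.1 in R 4.3.3, with an offset of 16. Probes with detection p under 0.01 on at least 2 arrays were kept (14416), symbols came from the platform annotation (34885 probes with 1 symbol, 18 with several and 10378 unlisted), and the brightest probe stood for a gene, which left 8561. limma was fitted on all 6 arrays with arm and time as additive terms (2 residual degrees of freedom, 4.82 added by moderation), two-sided, with Benjamini-Hochberg adjustment over all genes at 0.05. The pooled arrays of an arm at its 2 times served as its observations, so an arm difference that depends on time counts as error. The number of arrays limits precision.

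Named genes were the 6 highest and 6 lowest of each comparison (3 and 3 for NOB minus RC), the 3 brightest and dimmest of each subunit, 16 chosen by role, and the 2 largest of each related list, with others where they shared a start region or a diet pattern. Of the 16, Mrps36 was not among the platform genes and Mrpl45 was not detected, so they have no values. The genes, lists and rules were chosen with earlier results of these data known. The fit was tested on simulated data. Promoter windows came from RefSeq. Alternatives were the authors' processed values, median centring, no background correction, an offset of 50, other detection filters, the mean of probes, no time term and leaving out each array.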

Additional observations from a re-analysis of the deposited data

Results flagged for a closer look

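Some differences between arms had opposite signs at the 2 times, each value coming from 1 array a side, and the change between times was not tested. The median HFD minus RC difference of the 71 mitoribosomal genes was 0.11 at ZT14 and -0.088 at ZT2. The median NOB minus HFD difference was -0.044 at ZT14 and 0.055 at ZT2, and the median NOB minus RC difference was 0.0040 at ZT14 and -0.066 at ZT2. Among the genes, counting only those whose differences were at least 0.32 in size at both times, Mrpl52 stood at 0.36 (ZT14) and -0.43 (ZT2) for HFD minus RC. Mrps18c stood at 0.36 (ZT14) and -0.55 (ZT2) for HFD minus RC, and at 0.47 (ZT14) and -0.43 (ZT2) for NOB minus RC. With 1 array in each group, no group could be searched for an array far from the others.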

How the results depend on the processing

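For the 42 gene differences named by the rule, 569 of 575 values under an alternative kept their direction and their side of the false discovery rate of 0.05. Part of this count was fixed in advance. A difference between arms stays the same without the time term or without an array of the remaining arm, so its direction could not change there. The 42 were also picked as the highest and lowest of these same data, and none passed in the main fit. Keeping a direction and a side of the limit was therefore likely beforehand. By limma, 2 mitoribosomal genes passed for HFD minus RC with no background correction (Mrpl47 at -0.45, adjusted p = 0.046, and Mrps31 at -0.48, adjusted p = 0.041) and the same 2 with an offset of 50 (-0.45, adjusted p = 0.048, and -0.48, adjusted p = 0.044); over all alternatives the adjusted p ran from 0.046 to 0.384 for Mrpl47 and from 0.041 to 0.423 for Mrps31. For HFD minus RC, 622 of all 8561 genes passed with no background correction and 615 with an offset of 50. Signs turned for Mrpl51 in ZT14 minus ZT2, at 0.010 with the mean of its detected probes, and for Mrpl33 in NOB minus RC, at -0.015 without the RC array at ZT14, within a range of -0.015 to 0.40 over the arrays left out. Leaving out 1 array moved 21 of these 42 differences by over 1.5 times or across 0. When each array was left out in turn, the median for NOB minus RC ran from -0.061 to 0.027 over small-subunit genes and from -0.063 to 0.045 over large-subunit genes, and that for NOB minus HFD from -0.053 to 0.055 over small-subunit genes. Median centring in place of the quantile step moved the median of all genes to -0.04 for HFD minus RC. Under that scaling the mitoribosomal medians of HFD minus RC were 0.10 at ZT14 and -0.14 at ZT2. Slide could not be used as a block because the headers name none. No paired analysis was possible because the labels give no replicate numbers. Signal over background limits Mrpl51 and Mrpl57, and 1 array for each arm and time limits every within-time value.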
